A study of Danio rerio with 8 samples.

Results

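The Rab GTPase genes were examined across 4 pools of control and 4 pools of LIS1 morphant zebrafish larvae. Members were the genes whose symbol is rab followed by a digit, with effector and regulator genes of similar name, such as rab11fip4a, rab3ip and rab3gap1, left out. They were found by matching the transcript accession of each probe to a RefSeq gene table, in which 74 symbols met this rule. Of these, 56 had a probe on the array, with 114 probes in all, and 54 were tested among 23400 genes of the series. The other two, rab33ba and rab3db, each had 1 probe, which was not well above background on any of the 8 arrays. Every tested member was well above background on all 8 arrays.

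Each pool held 10 whole larvae of the WIK background taken at 4 days post fertilization, and its total RNA was hybridised to its own 1-colour array. The morphants had received a morpholino that transiently lowers LIS1, a regulator of the microtubule motor dynein, and had been chosen for a mild phenotype and for seizures. Control pools are labelled WT, without a word on whether they were injected, and eggs of common origin gave rise to both groups. A morpholino acts for a limited time and in whatever cells take it up, and the selection means that the morphant pools stand for larvae of that phenotype rather than for all injected larvae. Levels below are the log2 processed signal of a probe minus the 75th percentile of its array, changes are morphant minus control on that scale, SE is the standard error of the change, and a gene was called where its limma p, adjusted over all genes, was under 0.05. Because whole larvae were pooled, fewer cells of a type and less RNA per cell cannot be told apart in any value below.

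Rab proteins are small GTPases that mark the membranes of the cell, each at its own place on the path from the endoplasmic reticulum to the cell surface or from the surface to the lysosome. Exchange factors load them with GTP, which lets them recruit effectors such as tethers and motor adaptors, and GTPase-activating proteins switch them off. In neurons they move synaptic vesicle precursors, endosomes and signalling receptors along axons and dendrites, in part through adaptors that link Rab-marked membranes to dynein.

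Between 83.8% and 88.8% of the spots of an array were well above background, no spot was saturated, and arrays of a group correlated at 0.976 or more. The number of arrays limits the precision. Of the knocked-down genes, pafah1b1a differed by 0.07 (SE 0.19, limma adjusted p = 0.792) and pafah1b1b by -0.03 (SE 0.29, limma adjusted p = 0.945), which checks neither the knockdown nor the labels, since a morpholino can block translation alone. Of 10 measured neuron markers 2 rose and 1 fell by their brightest probes. The riser sypb was at 0.60, while its other probes stood at -0.08, -0.43 and -0.62. The summed linear signal of the neuron markers includes that sypb probe. It lay between 53.4 and 57.3 times the 75th percentile in control pools and between 54.5 and 64.5 in morphant pools. Of 9 measured photoreceptor markers 4 were called lower and none had a change above 0, with a median of -0.69. The sum of the photoreceptor markers was 429.6 to 555.4 in control and 195.2 to 390.6 in morphant pools. Of 10 exocrine pancreas markers 2 were called lower and none had a change above 0, with a median of -1.17 and sums of 319.9 to 1351 and 141.1 to 740.9. Of 5 intestine markers 1 fell, with sums of 50.2 to 114.6 and 46.4 to 81.3. Of 5 pituitary markers 1 rose and 1 fell, with sums of 1.41 to 2.69 and 2.18 to 3.15. The markers of these lists that fell, mep1ba and prl, were each well above background on only 7 of the 8 arrays. Each thus passed the filter through a single group. Their lowest pools, at -8.18 and -7.13, were morphants, so the size of each fall is uncertain. Over all genes tested, 16.4% were called higher and 21.9% lower. Whether the makeup of the larvae moved any Rab gene was not tested.

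Most Rab genes did not pass the test, and the largest called changes were falls of rab8b, rab10 and rab43 and a rise of rab36. In the limma fit across all genes, 17 of 54 passed an adjusted p of 0.05, which is 31.5% against 38.3% of all genes tested. Of these, 10 were higher in morphants (16.4% of all genes were) and 7 were lower (21.9% of all genes). The median log2 change, morphant minus control, was 0.08 over the Rab genes and -0.06 over all genes, and the median size of the change in either direction was 0.24 and 0.41. The groups of 4 pools did not overlap for 19 of 54 Rab genes, while this held for 38% of all genes. Of the 54 Rab genes, 4 were called with a change of at least 2-fold, where 16.3% of all genes tested were.

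**Figure D1:**
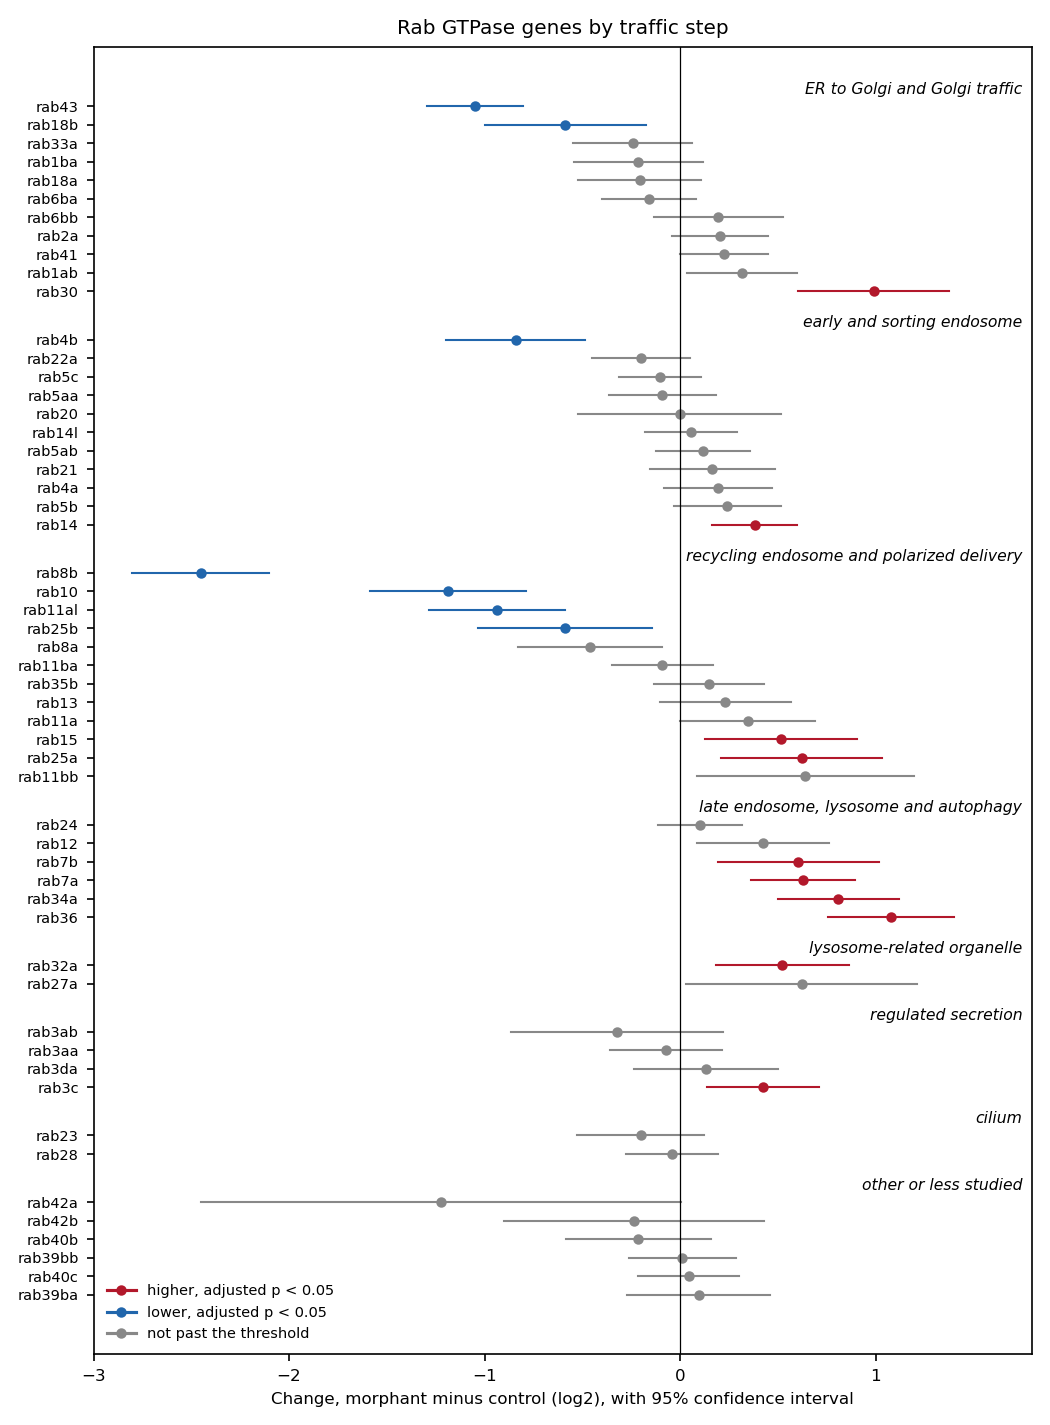
Change of each of the 54 tested Rab genes, morphant minus control on the log2 scale (x axis). Points give the fitted change and lines its 95% confidence interval (4 pools per group). Genes are grouped by the traffic step assigned to them here, a choice made with earlier results of these data known. A gene may act at other steps too. Most points lie near 0, rab8b stands lowest at -2.45, and all 6 genes of the late endosome and lysosome group lie above 0.

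**Figure D2:**
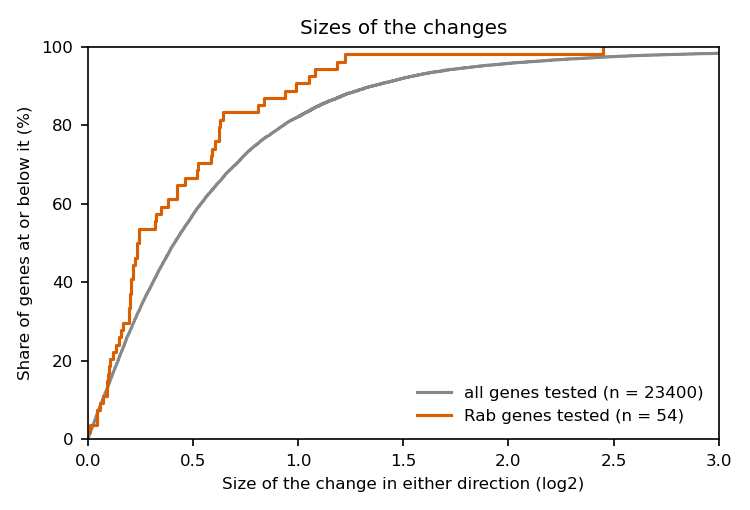
Cumulative share of genes (y axis, %) whose log2 change in either direction is at or below the size on the x axis, for the 54 Rab genes and for all 23400 genes tested. The median size is 0.24 for Rab genes and 0.41 for all genes; the x axis ends at 3, which leaves out the most changed of all genes.

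With each array scaled to its median, 13 Rab genes were higher and 5 lower. That scaling raised the median change of all genes by 0.07, a shift that is not particular to Rab genes. The shares of all genes called higher and lower under it are not given here. With normexp background correction and 75th percentile scaling 4 Rab genes were higher and 3 lower, a setting in which 2681 of all genes passed in place of 8963. Calls were set against these and other settings, 18 alternatives of scaling, background, filter, probe choice and arrays left out. The same direction and call were kept in all 18 by 7 of the 17 called genes, 3 lower (rab8b, rab10 and rab43) and 4 higher (rab36, rab30, rab34a and rab7a), and in 17 of 18 by rab11al and rab4b, which were lost under normexp background correction with 75th percentile scaling (adjusted p = 0.152 and 0.137). Among these, rab10, rab36, rab30, rab7a, rab11al and rab4b had 1 probe each, so the alternatives of probe choice could not test them. The other 8 called genes lay closer to the threshold. With the mean of the probes of a gene, the calls of rab18b, rab25a, rab32a and rab3c ended, and rab14 turned to -0.27. The count of higher Rab genes was 6, 5, 6 and 6 without control replicate 2, control replicate 3, morphant replicate 1 and morphant replicate 2. Calls over all genes also became fewer when an array was left out, at 6793 to 8907 in place of 8963.

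The recycling endosome group, whose members carry membrane from endosomes and the Golgi to the cell surface, held the strongest change. The gene rab8b read -0.42, -0.48, -0.75 and -0.50 in the 4 control pools and -3.30, -2.74, -3.09 and -2.81 in the 4 morphant pools. All 4 morphant pools lay far below all 4 controls. The gene, which serves delivery of cargo to the plasma membrane and, in mammals, to the primary cilium, fell by 2.45 on the log2 scale (SE 0.15, limma adjusted p = 2.01e-05), or 5.47-fold. Its other probes fell by 0.97 (adjusted p = 0.00573 over all probes) and by 2.10 (adjusted p = 5.01e-05 over all probes), so the direction was shared by all 3 probes while the size was not. Every slide held both groups, and across the 4 slides the difference of rab8b, morphant minus control, ran from -2.89 to -2.27.

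The gene rab10 read 2.90, 3.27, 2.92 and 3.61 in the 4 control pools and 1.92, 1.89, 1.97 and 2.18 in the 4 morphant pools. Here the lowest control pool was still above the highest morphant pool. It encodes a close relative of Rab8 that in mammals acts in exocytosis and axon growth, and it fell by 1.19 on the log2 scale (SE 0.18, limma adjusted p = 0.00129). The gene rab11al read -1.48, -1.82, -1.94 and -2.09 in the 4 control pools and -2.72, -2.69, -2.97 and -2.70 in the 4 morphant pools, again without overlap. A Rab11a-like gene of zebrafish by its name, it fell by 0.94 on the log2 scale (SE 0.15, limma adjusted p = 0.00198). The epithelial recycling GTPase genes rab25a and rab25b went opposite ways and are described with the other pairs. The gene rab15 read -0.71, -0.57, -0.39 and -0.59 in the 4 control pools and -0.20, 0.02, 0.37 and -0.38 in the 4 morphant pools. It is a regulator of endosomal recycling and rose by 0.52 on the log2 scale (SE 0.17, limma adjusted p = 0.0416), but it kept its call in only 1 of the 8 fits that leave out an array, that without morphant replicate 4, and adjusted p-values were 0.0536 to 0.0921 in the others.

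The other members of this group did not pass by their brightest probes. Among them, rab13 changed by 0.23 (adjusted p = 0.242), while its dimmer probe rose by 0.83 (adjusted p = 0.00818 over all probes). The gene rab8a changed by -0.46 (adjusted p = 0.051), and passed when control replicate 1 was left out (-0.56, adjusted p = 0.0249). The main recycling endosome genes rab11a, rab11ba and rab11bb changed by 0.35, -0.09 and 0.64 (adjusted p = 0.102, 0.558 and 0.0681). Dimmer probes of rab11a and rab11ba went the other way, at -0.26 and 0.42 (adjusted p = 0.438 and 0.131 over all probes). For rab11bb the 95% confidence interval ran from 0.08 to 1.20, since its control pools spread from -0.77 to 0.41. The group thus had 4 of 12 genes lower and 2 higher, with a median change of 0.03. Over all genes tested, 21.9% were lower and 16.4% higher, and the difference in share was not tested.

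**Figure D3:**
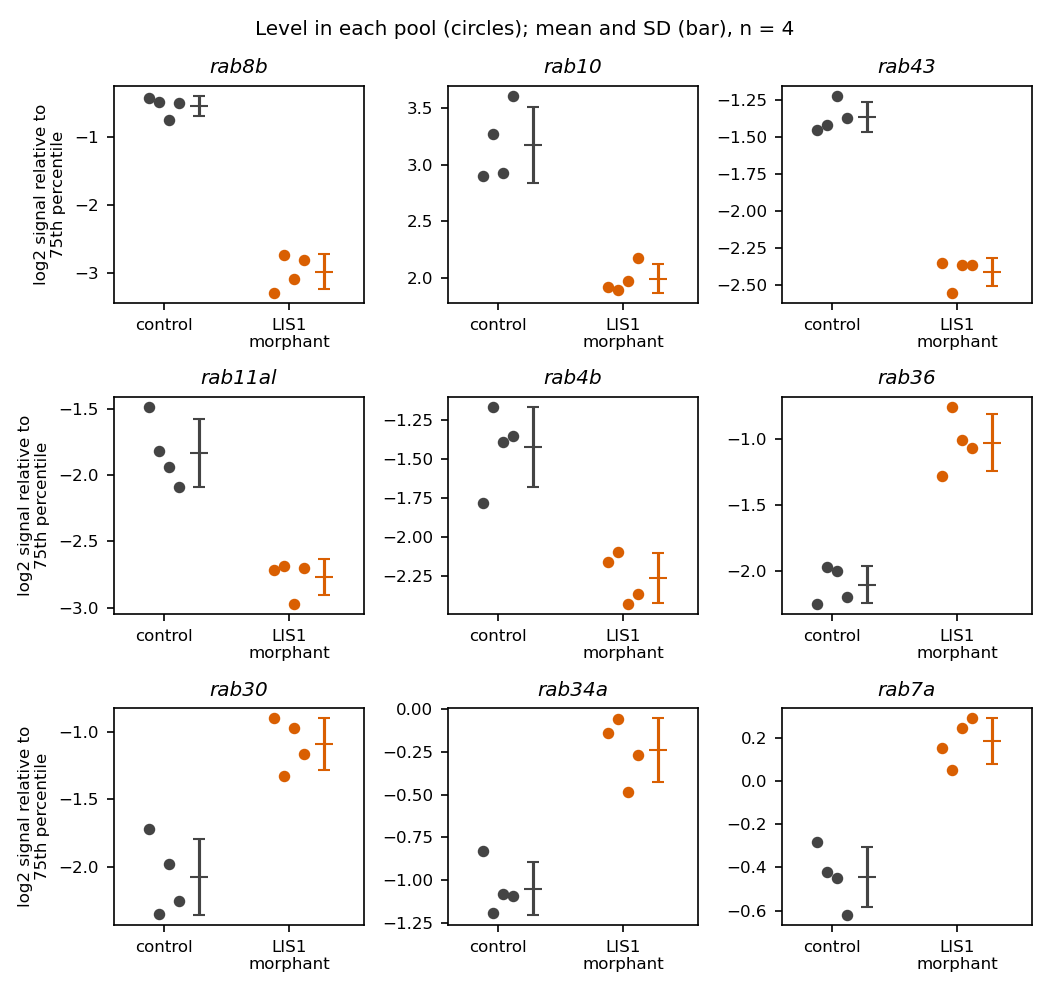
Level of 9 Rab genes in each pool (circles), as log2 signal minus the array's 75th percentile (y axis, on its own range in each panel), with the mean and SD of the 4 pools of a group. In each panel the control and morphant circles do not overlap; rab8b, rab10, rab43, rab11al and rab4b are lower in morphants and rab36, rab30, rab34a and rab7a higher.

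Of 6 late endosome, lysosome and autophagy genes, 4 rose and none was called lower, where 16.4% of all genes were called higher. All 6 changes were above 0, as were those of 10707 of all 23400 genes, and the median change was 0.62. The group was formed with earlier results of these data known, and its count was not tested against other genes. The gene rab36 read -2.25, -1.97, -2.0 and -2.20 in the 4 control pools and -1.28, -0.75, -1.0 and -1.07 in the 4 morphant pools. No morphant pool came down to the highest control. In mammals Rab36 and Rab34 bind the adaptor RILP and position lysosomes, and rab36 rose by 1.08 on the log2 scale (SE 0.14, limma adjusted p = 0.000727), or 2.11-fold. The gene rab34a read -0.83, -1.19, -1.08 and -1.09 in the 4 control pools and -0.14, -0.06, -0.49 and -0.27 in the 4 morphant pools, and it rose by 0.81 on the log2 scale (SE 0.14, limma adjusted p = 0.00233). Its other probe rose by 0.84 (adjusted p = 0.00381 over all probes).

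The gene rab7a read -0.28, -0.42, -0.45 and -0.62 in the 4 control pools and 0.15, 0.05, 0.25 and 0.29 in the 4 morphant pools. It encodes the central GTPase of late endosomes and lysosomes, which binds dynein through RILP, and it rose by 0.63 on the log2 scale (SE 0.12, limma adjusted p = 0.00368). The pools of the 2 groups did not overlap. Its relative rab7b had pools that overlapped, with controls from -0.26 to 0.50 and morphants from 0.39 to 0.85, and rose by 0.61 on the log2 scale (SE 0.18, limma adjusted p = 0.0289). Its other probe changed by 0.61 (adjusted p = 0.0538 over all probes), and the call held in 2 of the 8 fits that leave out an array, those without control replicate 4 or morphant replicate 3, with adjusted p-values of 0.0543 to 0.0778 in the others. The autophagy-linked genes rab12 and rab24 changed by 0.42 (adjusted p = 0.0512) and 0.10 (adjusted p = 0.421). Their dimmer probes were at 0.29 and 0.37 (adjusted p = 0.0922 and 0.0268 over all probes).

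Golgi and endoplasmic reticulum Rab genes split in direction, with 1 of 11 higher, 2 lower and a median change of -0.16. Of all genes tested, 16.4% were higher and 21.9% lower. The gene rab43 read -1.45, -1.42, -1.22 and -1.37 in the 4 control pools and -2.36, -2.56, -2.37 and -2.37 in the 4 morphant pools. The gap between the groups was much wider than the spread within either. It acts at the Golgi in mammals and fell by 1.05 on the log2 scale (SE 0.11, limma adjusted p = 0.000239), or 2.07-fold, and its other probes fell by 0.99 and 0.78 (adjusted p = 0.000234 and 0.00397 over all probes). The gene rab30 read -1.72, -2.35, -1.98 and -2.25 in the 4 control pools and -0.89, -1.32, -0.97 and -1.16 in the 4 morphant pools. Every morphant pool was above every control. Rab30 is a Golgi protein in mammals, and the gene rose by 0.99 on the log2 scale (SE 0.17, limma adjusted p = 0.00256), or 1.99-fold.

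The gene rab18b read 3.17, 2.93, 2.85 and 3.15 in the 4 control pools and 2.38, 2.19, 2.25 and 2.94 in the 4 morphant pools. Morphant replicate 4 lay within the controls, and the other morphant pools below them. It encodes a protein of the endoplasmic reticulum and lipid droplets and fell by 0.59 on the log2 scale (SE 0.18, limma adjusted p = 0.0325). Its other probe changed by 0.09 (adjusted p = 0.551 over all probes) and the mean of both was -0.25 (adjusted p = 0.132), and the call held only without control replicate 3 or morphant replicate 4 among the 8 fits that leave out an array, with adjusted p-values of 0.0599 to 0.0842 in the other 6. The transport genes of the early secretory path did not pass, among them rab1ab at 0.32 (adjusted p = 0.0727), rab1ba at -0.21 (adjusted p = 0.272) and rab6ba at -0.16 (adjusted p = 0.26). For rab1ab the morphant pools nonetheless lay above all controls. Its dimmer probes were at 0.45 and 0.15 (adjusted p = 0.0417 and 0.574 over all probes). The brightest probe of rab2a changed by 0.20 (adjusted p = 0.167), although its 3 dimmer probes rose by 0.60 to 0.74 (adjusted p = 0.00191 to 0.00545 over all probes) and the mean of its probes by 0.57 (adjusted p = 0.00482).

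Of 11 early endosome genes, 1 was called higher (rab14) and 1 lower (rab4b), where 38.3% of all genes passed. The rab14 call rests on its brightest probe, since its other probes fell, as given below. By the probes that stand for the genes, the median change was 0.06 and the median size was 0.17. The Rab5 genes, which drive fusion of early endosomes, lay between -0.10 for rab5c and 0.24 for rab5b, and none of rab5aa, rab5ab, rab5b and rab5c passed. For rab5c the control pools at 3.36, 3.41, 3.36 and 3.36 nonetheless lay above all morphant pools at 3.31, 3.28, 3.25 and 3.24. A dimmer probe of rab5c fell by 1.16 (adjusted p = 0.00826 over all probes) while its remaining probe stood at -0.02, and the mean of the probes fell by 0.43 (adjusted p = 0.0286). For rab21 the brightest probe changed by 0.17 (adjusted p = 0.381), while the dimmer probe fell by 1.33 (adjusted p = 0.0026 over all probes).

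The gene rab4b read -1.78, -1.16, -1.39 and -1.35 in the 4 control pools and -2.16, -2.10, -2.43 and -2.36 in the 4 morphant pools. Control replicate 1 was the lowest control, still above all morphants. The gene, which acts in fast recycling from early endosomes, fell by 0.84 on the log2 scale (SE 0.16, limma adjusted p = 0.00374). The gene rab14 read 1.53, 1.55, 1.55 and 1.40 in the 4 control pools and 1.88, 1.89, 1.90 and 1.88 in the 4 morphant pools, without overlap. It links the Golgi and endosomes, and by this probe it rose by 0.38 on the log2 scale (SE 0.10, limma adjusted p = 0.0139). Its other probes went the other way, at -0.62 and -0.57 (adjusted p = 0.00649 and 0.0152 over all probes), and the mean of its probes was -0.27 (adjusted p = 0.0906), so no direction can be given for rab14. Of its relative rab14l the brightest probe changed by 0.06 (adjusted p = 0.69) and the other 3 fell by 0.42 to 1.22 (adjusted p = 0.00937 to 0.0198 over all probes).

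Among Rab genes of lysosome-related organelles, such as melanosomes, rab32a and rab27a were measured. The gene rab32a read -0.47, -0.79, -0.72 and -0.55 in the 4 control pools and -0.17, -0.19, -0.33 and 0.24 in the 4 morphant pools. It rose by 0.52 on the log2 scale (SE 0.15, limma adjusted p = 0.0241), but its other probes were at 0.94 (adjusted p = 0.00266 over all probes) and -0.28 (adjusted p = 0.18), and the call was lost without control replicate 2 or control replicate 3 (adjusted p = 0.0704 and 0.0621). The gene rab27a changed by 0.62 (adjusted p = 0.0905), with morphant replicate 4 at -1.20 and the other morphant pools at -2.14, -2.21 and -2.33, and its dimmer probe rose by 1.26 (adjusted p = 0.027 over all probes). Of 6 measured pigment cell markers 3 rose and 1 fell, where 16.4% of all genes were called higher and 21.9% lower. The risers were pmela, pmelb and mitfa, at 0.63, 0.66 and 0.96. The marker that fell, tyr, changed by -2.20 (limma adjusted p = 0.019), with pools that overlapped. It was well above background on only 5 of the 8 arrays, and thus passed the filter through a single group. The size of its fall is therefore uncertain. The markers slc24a5 and tyrp1b did not pass, at -0.12 and 0.09. The summed signal of the markers was 49.6 to 84.7 in control and 60.5 to 80.8 in morphant pools, so the sums overlapped. The sum is dominated by the brightest marker, tyrp1b (control mean 5.51, change 0.09), and so says little about the others. The part of pigment cells in the rab32a value was not tested.

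Of the genes of regulated secretion, which mark synaptic and other secretory vesicles, 1 of 4 passed, beside 38.3% of all genes. The gene rab3c read 2.0, 1.80, 1.61 and 2.0 in the 4 control pools and 2.36, 2.23, 2.36 and 2.16 in the 4 morphant pools. It rose by 0.42 on the log2 scale (SE 0.13, limma adjusted p = 0.0279), with its other probe at 0.15 (adjusted p = 0.424 over all probes). The call did not hold without control replicates 2 or 3 or morphant replicates 1, 2 or 3, with adjusted p-values of 0.0537 to 0.0734. The synaptic vesicle gene rab3aa changed by -0.07 with a 95% confidence interval from -0.36 to 0.21, rab3ab by -0.32 with an interval from -0.86 to 0.22, and rab3da by 0.13 with an interval from -0.23 to 0.50. None of the 3 differed beyond the spread between pools.

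The cilium genes rab23, an inhibitor of Hedgehog signalling in mouse, and rab28 changed by -0.20 and -0.04 (adjusted p = 0.29 and 0.771). One dimmer probe of rab28 fell by 0.69 (adjusted p = 0.00378 over all probes) and its other 3 lay between -0.09 and 0.03. By their brightest probes, none of the 2 cilium genes and none of the 6 less studied genes passed, beside 38.3% of all genes. The gene rab42a read -0.13, -1.06, -1.25 and 1.52 in the 4 control pools and -1.44, -1.45, -1.35 and -1.57 in the 4 morphant pools. All controls lay above all morphants, with control replicate 4 far above the rest, and the fitted change was -1.22 (adjusted p = 0.104) with differences within slides from -3.09 to -0.10. The genes rab39ba, rab39bb, rab40b and rab40c lay between -0.21 and 0.10.

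Closely related Rab genes were then compared within arrays, to ask whether the members of a pair changed by different amounts. For each pair of tested genes whose symbols differ only in a final a or b, the log2 difference a minus b was taken on each array and fitted with limma over all 1230 such pairs of the table. Of 11 Rab pairs, 4 differed in their change at an adjusted p of 0.05, where 40.7% of all pairs did. The largest difference was that of rab8a and rab8b, at 1.99 with a 95% confidence interval from 1.53 to 2.45 (limma adjusted p = 0.000119), above 0 on all 4 slides. The rab8 difference passed under all 17 alternatives run on pairs, but ran from 1.484 to 2.105, so its size depends on the setting. The difference for rab4a and rab4b was 1.04, from 0.60 to 1.47 (limma adjusted p = 0.00295). It passed under all 17 alternatives run on pairs, with differences of 0.75 to 1.16 and adjusted p-values of 0.00213 to 0.0343, although a dimmer probe of rab4a fell by 0.41 (adjusted p = 0.0279 over all probes).

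The pair rab25a and rab25b was the only Rab pair with both members called in opposite directions, as 5.69% of all pairs were. The gene rab25a read -0.72, -1.18, -1.10 and -0.83 in the 4 control pools and -0.21, -0.12, -0.78 and -0.23 in the 4 morphant pools. The gene rab25b read 0.05, 0.69, 0.45 and 0.69 in the 4 control pools and -0.51, 0.15, -0.11 and -0.01 in the 4 morphant pools. Each pair of groups overlapped by a pool, and on every slide rab25a was higher and rab25b lower in the morphant. The fitted changes were 0.62 (limma adjusted p = 0.0254) and -0.59 (limma adjusted p = 0.042), and their difference was 1.21, from 0.60 to 1.82 (limma adjusted p = 0.00725). The difference stayed past the threshold under all 17 alternatives run on pairs. The single calls were less firm. Among the 8 fits that leave out an array, rab25a passed only without control replicate 1, control replicate 4 or morphant replicate 3, with adjusted p-values of 0.0588 to 0.0727 in the others. The gene rab25b passed only without control replicate 1 or morphant replicate 2, with 0.0618 to 0.11 in the others. Of the other probes, those of rab25b fell by 0.51 and 0.46 and those of rab25a were at -0.04 and 0.03, so that the mean of the rab25a probes was 0.21 (adjusted p = 0.293).

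The genes rab11ba and rab11bb differed by -0.73 (limma adjusted p = 0.0433), a call that held only without control replicate 2 or 3 among the fits that leave out an array (adjusted p = 0.0742 to 0.101 in the others). With the mean of the probes the difference was -0.48 (limma adjusted p = 0.109). The call was also lost with the authors' deposited values (adjusted p = 0.0539) and under normexp with 75th percentile scaling (adjusted p = 0.0817). The remaining 7 pairs did not pass. The 95% confidence intervals of their differences ran from -0.49 to 0.54 for rab7a and rab7b, from -0.19 to 0.96 for rab18a and rab18b, from -0.36 to 0.86 for rab3aa and rab3ab, and from -0.52 to 0.10 for rab5aa and rab5ab. The pairs rab6ba with rab6bb and rab42a with rab42b differed by -0.35 and -0.99 (adjusted p = 0.128 and 0.133), and passed without control replicate 1 (-0.48, adjusted p = 0.0469) and without control replicate 3 (-1.38, adjusted p = 0.0354). The rab18 pair, at 0.38, passed without morphant replicate 4 (0.61, adjusted p = 0.0389).

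**Figure D4:**
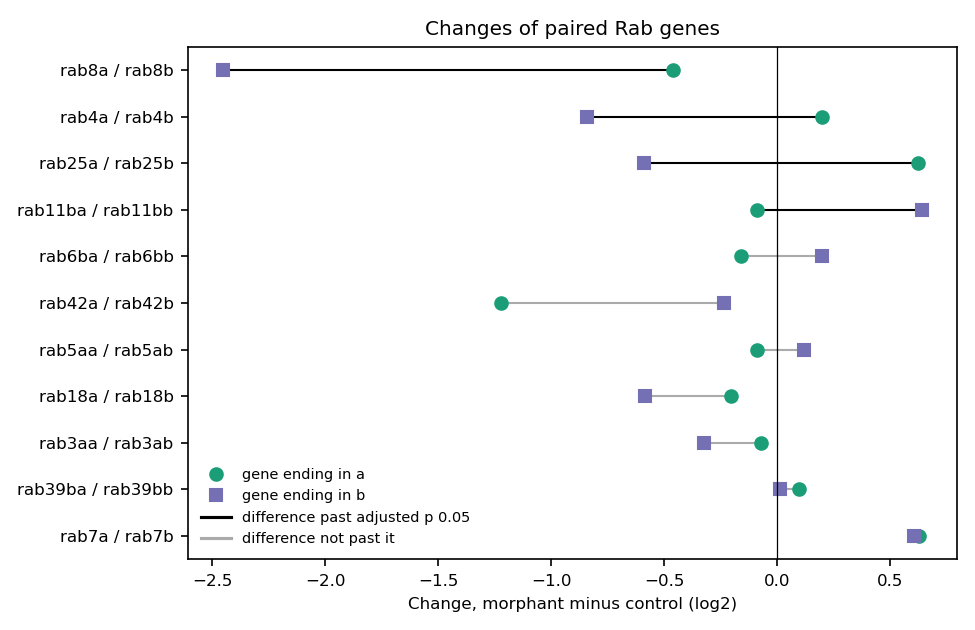
Change of each member of the 11 Rab pairs, morphant minus control on the log2 scale (x axis), with a circle for the gene ending in a, a square for the gene ending in b and a line for the difference, black where it passed an adjusted p of 0.05 over all pairs. The members of the rab8, rab4, rab25 and rab11b pairs lie furthest apart relative to their spread, and rab7a and rab7b lie together at 0.63 and 0.61.

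Several probes of a gene gave a further reading of the same RNA. Of 54 genes, 34 had more than 1 probe past the filter, and in 20 of them all probes changed in a single direction. The median range between the probes of a gene was 0.37. When every probe was tested by itself, 19 Rab probes were higher and 22 lower of 112, where 38.5% of all probes passed. By this count 27 Rab genes had a probe that passed, 10 of which had not been called by their brightest probe. The share of all genes with such a probe is not given here, and a gene with more probes has more chances to pass. The gene rab14 was the only one with probes called in opposite directions. Of the 10 called genes with several probes, 6 had all probes on the same side, namely rab8b, rab43, rab25b, rab34a, rab7b and rab3c. No source used here says which part of a transcript each probe matches.

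**Figure D5:**
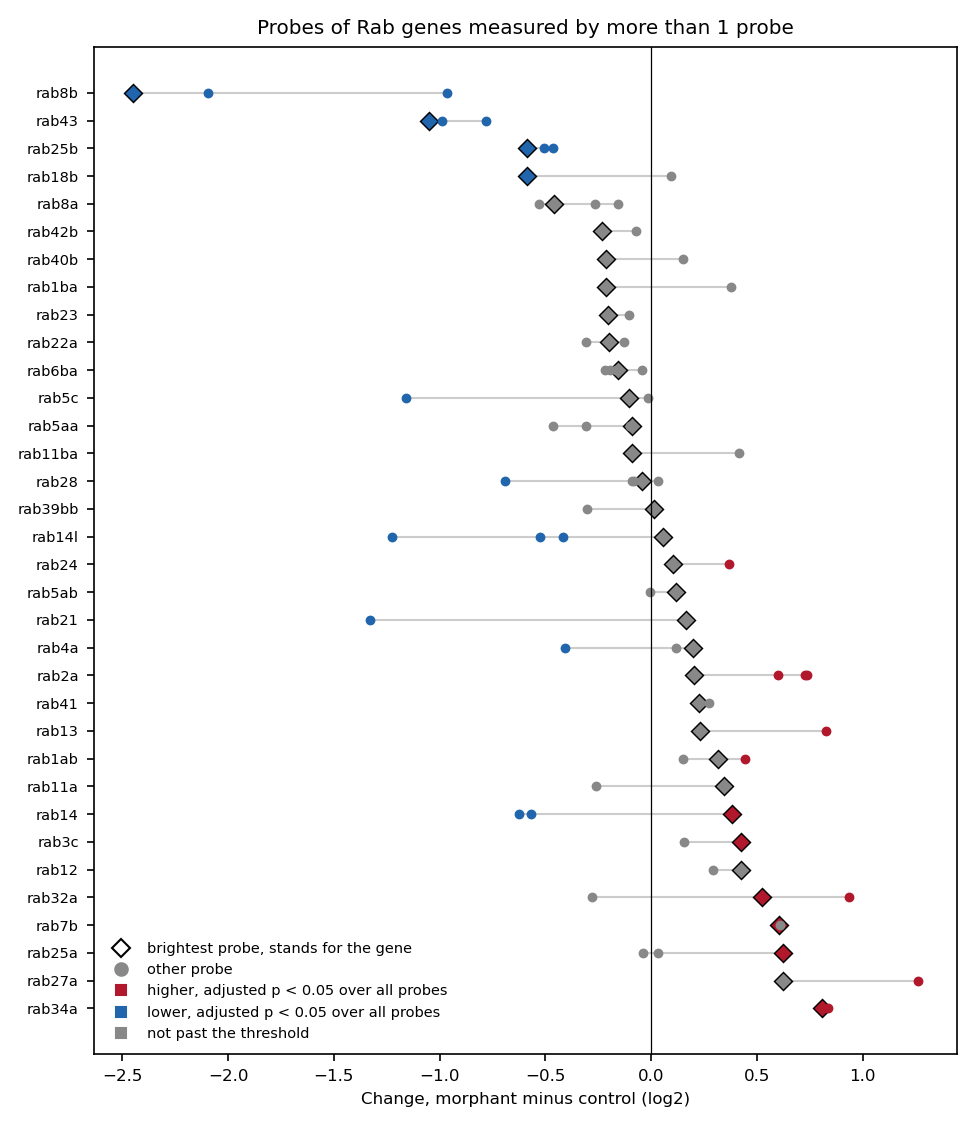
Change of every probe past the filter, morphant minus control on the log2 scale (x axis), for the 34 Rab genes with more than 1 probe; a diamond marks the brightest probe, which stands for the gene, and colour marks calls adjusted over all probes. The probes of rab8b, rab43, rab25b and rab34a lie on the same side of 0, whereas those of rab14 and rab21 lie on both.

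Genes that prenylate and deliver Rab proteins, load them, switch them off or read them were counted in 4 lists. The lists held 7 genes of prenylation and delivery, 27 of exchange factors, 17 of GTPase-activating proteins and 23 of effectors among the genes tested. Over all of them 12 genes were higher and 12 lower, beside 16.4% and 21.9% of all genes. With normexp background correction and 75th percentile scaling 4 were higher and 2 lower. The higher count in the original setting was 6 or 7 without control replicate 2, control replicate 3, morphant replicate 1 or morphant replicate 2. Over all genes, leaving out an array gave 6793 to 8907 calls in place of 8963. Among genes not called by their brightest probe, dimmer probes were called lower for rab3gap1, rabgef1, rabep1 and exoc6b (-0.64, -0.99, -0.84 and -1.66). Dimmer probes were called higher for ccz1, rgp1 and dennd2da (0.43, 0.47 and 0.58). These calls were adjusted over all probes. Of 7 genes of prenylation and membrane delivery, 1 rose and none fell, with a median of 0.21. The Rab escort gene chm and the prenyl transferase subunit genes rabggta and rabggtb did not pass, at 0.18, 0.50 and 0.16 (adjusted p = 0.253, 0.197 and 0.448). The GDP dissociation inhibitor gene gdi2 rose by 0.33 on the log2 scale (SE 0.10, limma adjusted p = 0.0371), a call lost with the replicate number as a block (adjusted p = 0.0517) and held only without control replicate 1 when an array was left out. Of 17 genes of Rab GTPase-activating proteins, 1 rose and 1 fell, or 11.8% beside 38.3% of all genes, with a median of 0.06. The gene tbck, which encodes a TBC domain protein, rose by 0.89 on the log2 scale (SE 0.11, limma adjusted p = 0.000657), and grtp1a, whose product belongs to the same family, fell by 0.48 (adjusted p = 0.0236). The grtp1a call was lost without control replicates 2 or 3 or morphant replicates 2 or 4 (adjusted p = 0.0563 to 0.0612).

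Exchange factor genes had 5 of 27 higher and 4 lower, or 33.3% beside 38.3% of all genes, with a median of 0.04. The gene trappc3 read 0.01, -0.32, -0.40 and -0.11 in the 4 control pools and 1.50, 1.43, 1.37 and 1.40 in the 4 morphant pools. The groups were far apart, and trappc3, a core subunit of the TRAPP complexes that activate Rab1 and Rab11, rose by 1.63 on the log2 scale (SE 0.12, limma adjusted p = 5.02e-05). Of 10 TRAPP genes tested, trappc13 also rose, by 0.44 (adjusted p = 0.0406), and trappc5 by 0.75 (adjusted p = 0.0194), and 7 did not pass. For trappc5 the probes disagreed, since its dimmer probe was well above background on all 4 control arrays and on no morphant array, so its direction rests on the probe chosen, and the call of the brighter probe was lost without control replicate 2 or morphant replicate 1 (adjusted p = 0.0538 and 0.054). The gene rabgef1l, named for the Rab5 exchange factor, fell by 1.26 on the log2 scale (SE 0.21, limma adjusted p = 0.00204), but stood at -0.47 and -0.53 under normexp with 75th percentile and with quantile scaling (adjusted p = 0.518 and 0.00457). The gene dennd4a, which encodes a DENN domain protein, rose by 1.33 on the log2 scale (SE 0.20, limma adjusted p = 0.00139). Lower values were also called for avl9, at -0.73 (adjusted p = 0.00617) with its other probe at 0.54 and the mean of both at -0.09 (adjusted p = 0.758), and for hps1, whose product is part of an exchange factor for Rab32 and Rab38 in mammals, at -0.52 (adjusted p = 0.0309), a call that held in 3 of the 8 fits that leave out an array, those without control replicates 1 or 2 or morphant replicate 3. Under normexp with 75th percentile and with quantile scaling avl9 stood at -0.34 and -0.37 (adjusted p = 0.628 and 0.0235) and hps1 at -0.22 and -0.23 (adjusted p = 0.821 and 0.139). The Rab8 exchange factor gene rab3ip changed by 0.21 (adjusted p = 0.146).

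Of 23 effector genes, 5 were higher and 7 lower, or 52.2% beside 38.3% of all genes, with a median of -0.17. The difference in share was not tested. The gene rab11fip4a read -0.74, -0.44, -0.39 and -0.47 in the 4 control pools and -3.32, -3.57, -3.20 and -3.83 in the 4 morphant pools. All morphant pools were well below the controls. The gene, which encodes a Rab11 effector, fell by 2.97 on the log2 scale (SE 0.16, limma adjusted p = 8.21e-06), by its only probe. Its paralog rab11fip4b rose by 0.42 (adjusted p = 0.0354) by its brighter probe, with the other at -0.34 (adjusted p = 0.63 over all probes) and the mean of both at 0.04 (adjusted p = 0.925). The call was also lost with the replicate number as a block (adjusted p = 0.0598) and held only without control replicate 4 or morphant replicate 4 when an array was left out. The change of rab11fip4a was lower than that of rab11fip4b by -3.40 on the log2 scale, with a 95% confidence interval from -3.79 to -3.01 (limma adjusted p = 2.01e-06 over all pairs). The gene myo5b read -0.86, -0.96, -1.25 and -0.79 in the 4 control pools and -1.79, -2.08, -1.82 and -2.24 in the 4 morphant pools. It encodes a myosin motor that binds Rab8, Rab10 and Rab11 in mammals and fell by 1.02 on the log2 scale (SE 0.15, limma adjusted p = 0.00142). Its other probes were at -1.03 and -0.17 (limma adjusted p = 0.0304 and 0.591 over all probes). The probe at -1.03 was well above background on 3 morphant and 4 control arrays. It thus passed the filter through the control pools alone. The endosomal adaptor gene appl2 fell by 0.92 (adjusted p = 0.0148), but stood at -0.34 and -0.32 under normexp with 75th percentile and with quantile scaling (adjusted p = 0.767 and 0.0578). The gene rabep2, which encodes a Rab5 and Rab4 effector, rose by 0.82 on the log2 scale (SE 0.14, limma adjusted p = 0.00216) by its brightest probe, with others at 0.67 and -0.22 and a mean of the probes of 0.42 (adjusted p = 0.151). The gene rilpl1, a relative of the RILP gene, rose by 0.74 (adjusted p = 0.0126), but stood at 0.18 under normexp with either scaling (adjusted p = 0.91 and 0.117). Its probe cleared background on only 5 of the 8 arrays, 4 of morphants and 1 of controls. It thus passed the filter through the morphant pools alone, and it is counted among the 5 higher genes. The size of its rise is therefore uncertain. The dynein adaptor gene bicd2, an effector of Rab6, changed by -0.01 (adjusted p = 0.963). The 7 lower genes of this list also included bicdl2, which shares the bicd name, at -0.44 (adjusted p = 0.0118), with its other probe at -0.15. Also among them was kif20a at -0.49 (adjusted p = 0.00449), with its other probe at -0.36.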

How the data were processed

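Cy3-labelled RNA from 8 pools was read on Agilent 1-colour arrays, named as mouse in the labels' protocol and as a zebrafish design in the file headers. The deposited scanner files hold, per the file headers, intensity values from Feature Extraction 10.7.3.1, namely a background-subtracted processed signal and median spot and background signals, with no normalization across arrays. The authors' deposited table holds normalized log2 values, by a method not given in the sources used here. Its column medians were 8.13, and 6 of 8 columns followed the scanner file of a different replicate in their group, so it served only as an alternative without a block.

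Log2 processed signals were centred on the 75th percentile of each array, after control and outlier spots were dropped and spots of a probe averaged (43603 probes). A probe was kept if well above background on every array of a group (36707 probes), named by accession through the RefSeq table of GRCz12tu (25069 probes, names only), and the probe of highest mean represented its gene.

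Groups were compared in limma 3.58.1 under R 4.3.3 (lmFit, eBayes), and p-values were adjusted by the Benjamini-Hochberg method over 23400 genes, over 1230 pairs (some of them not paralogs), or over all kept probes where stated. Alternatives changed scaling, background, filter, probe rule, source of values, block and arrays. Normexp used median spot signals, since no mean signal was in the files. The fit was tested on simulated data.

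Members, role groups and lists were chosen with earlier results of these data known. The text names each called Rab gene, its partner in a pair, the brightest gene of each role group and up to 3 called genes per direction from each pathway list. Further genes were named after their values were seen. Labels describe separate pools. Arrays of a number shared a slide and scan. Their deviations from the group means correlated at 0.454, 0.159, 0.322 and 0.283, so the numbers pair the arrays. Whether they also pair the larvae was not tested. The main fit was unpaired, and a fit with the replicate number as a block served as an alternative.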

Additional observations from a re-analysis of the deposited data

Results flagged for a closer look

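Each of 80 groups of 4 pools, for 40 named genes, was examined for a pool far from the other 3, and 5 groups were marked because the gap to the nearest pool took up most of the group's range. Chance marks about 1 group in 20. For rab11al, morphant replicate 3 read -2.97 and the other morphant pools read -2.72 to -2.68. For rab14, control replicate 4 read 1.40 and the other control pools read 1.53 to 1.55. For rab25a, morphant replicate 3 read -0.78 and the other morphant pools read -0.23 to -0.12. For rab43, morphant replicate 2 read -2.56 and the other morphant pools read -2.37 to -2.36. For rab5c, control replicate 2 read 3.41 and the other control pools read 3.36 to 3.37. Each of these pools is part of every value given above for its gene. Without morphant replicate 3, rab25a kept its call, and rab11al, rab43 and rab14 kept theirs without the pool named.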

How the results depend on the processing

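Of the 10 higher and 7 lower Rab genes, 7 kept their direction and call in all 18 alternatives. Of these 7, rab10, rab36, rab30 and rab7a had 1 probe each, so the probe rule could not test them. Under normexp with 75th percentile scaling, 4 Rab genes were higher and 3 lower, 4 pathway genes were higher and 2 lower (12 and 12 before), and 2681 of all genes passed in place of 8963. Testing every probe by itself gave 15 Rab genes with a probe called higher and 13 with a probe called lower, without a share of all genes to set beside them. The median Rab change, 0.08, was 0.15 under median scaling, which raised the median of all genes by 0.07, and 0.020 with the mean of a gene's probes. Leaving out an array gave 5 to 10 higher and 5 to 7 lower Rab genes, 3 to 5 pairs, 6 to 10 higher and 8 to 11 lower pathway genes, medians of 0.05 to 0.10 and 6793 to 8907 called genes overall. With the replicate number as a block, 12 Rab genes were higher and 7 lower, 4 pairs and 10360 genes passed, and among the named genes it ended only the calls of gdi2 and rab11fip4b. Signs turned with the mean of the probes for rab11ba (0.16), rab14 (-0.27), rab4a (-0.030) and trappc5 (-3.42), and under median scaling for rab28 (0.031). Leaving out an array, rab28 ran from -0.075 to 0.0042, rab40c from -0.0061 to 0.11, the rab7 pair from -0.19 to 0.12 and the rab39b pair from -0.091 to 0.26, none of which passed. The cause of these shifts was not tested. Every Rab gene tested was well above background on all 8 arrays.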
